A study of Mus musculus with 8 samples.

Results

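The fragments described here are the small RNAs of mouse sperm that the deposited annotation assigns to small nuclear RNA (snRNA) or small nucleolar RNA (snoRNA) and to no miRNA, tRNA, rRNA or YRNA name. They were 28549 distinct fragments, 13929 of snRNA and 14620 of snoRNA, among 5724730 distinct fragments in all 8 samples. Mature sperm came from the caudae epididymides of 4 activated mice (Agrp Cre/+ with CNO) and 4 control mice (Agrp +/+ with CNO). Mice of both genotypes had received an AAV-hM3Dq-mCherry vector in the arcuate nucleus, which gives an activating DREADD receptor to cells with Cre, and both were given its ligand CNO in the absence of food, 4 h before sperm was taken. The control mice therefore carry virus and ligand but no Cre allele, and a group without CNO was not analysed here. The mice were males, 8 weeks old when the vector was injected. The question addressed was whether AgRP neuron activation goes with a different content of these fragments in sperm. The labels number the samples of a group but do not say how they were handled, so p-values measure the spread between these samples.

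Small nuclear RNAs are the RNA cores of the spliceosome. U1, U2, U4, U5 and U6 serve the major spliceosome, which removes most introns, U11 and U12 belong to the minor spliceosome, and U7 takes part in the processing of histone mRNA ends. Most snoRNAs are cut from introns of host genes. Box C/D snoRNAs carry a C box (TGATGA in the DNA letters used here) near the 5′ end and a D box (CTGA) near the 3′ end and guide the methylation of ribosomal RNA, whereas box H/ACA snoRNAs end in an ACA motif and guide the formation of pseudouridine. Mature sperm is held to be largely silent in transcription, so its snRNAs and snoRNAs are usually met as remnants or fragments.

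Reads are of 15 to 45 bases, shorter than most of these RNAs, so each read is a piece of its RNA. The files name the class but no RNA below it. Fragments were therefore matched to the snRNA and snoRNA gene models of GENCODE M21 (GRCm38, the build also called mm10), which placed them on 67 snRNAs and 336 snoRNAs, with related copies of U1, U2, U3, U5, U6, U7, U11 and U12 (at least 80% identity) joined into families. In this way 503 models were joined as U6 and 54 as U1. Many fragments match several copies of a family, so levels are given per family: the most abundant U6 fragment matches 138 of its models. Families did not settle every match: fragments that matched 1 RNA or family only held 65.8% of snRNA and 94.2% of snoRNA RPM. Each of the others was given whole to 1 of the RNAs it matched, taken in order of RPM, so the levels depend on that rule. The sequences below are those on which the results turn. The gene models are shown whole, 5′ to 3′, with their most abundant fragment in capitals.
U12 gene model: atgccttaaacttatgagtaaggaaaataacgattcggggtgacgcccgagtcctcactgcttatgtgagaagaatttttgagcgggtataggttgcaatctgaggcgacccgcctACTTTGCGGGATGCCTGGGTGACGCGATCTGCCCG
Gm22193 gene model: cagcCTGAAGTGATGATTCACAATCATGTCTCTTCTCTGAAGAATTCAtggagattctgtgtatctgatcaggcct
Snord2 gene model: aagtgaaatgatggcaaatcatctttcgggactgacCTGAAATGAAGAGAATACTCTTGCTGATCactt
Gm23262 gene model: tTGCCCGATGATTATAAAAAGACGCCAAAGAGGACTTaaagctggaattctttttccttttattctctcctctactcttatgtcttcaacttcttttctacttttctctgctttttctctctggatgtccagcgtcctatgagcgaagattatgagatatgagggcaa

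U12 (gene Rnu12, chr15:83149644-83149794, + strand) lies in no annotated host gene. The gene models of the 3 snoRNAs lie in introns: Gm22193 in Sf3b3 (chr8:110842383-110842458, - strand), Snord2 in Eif4a2 (chr16:23108953-23109021, + strand) and Gm23262 in Eif4g2 (chr7:111076060-111076227, - strand). Eif4a2 and Eif4g2 code for translation initiation factors and Sf3b3 for a splicing factor. The capitals cover the 3′ end of U12 and of Snord2 and the 5′ part of Gm22193 and Gm23262.

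Depth ranged from 9297271 to 23123740 reads per sample, of which members made up 50532 to 191983 reads, or 0.537% to 1.12%. Levels are given in RPM, the reads of an item for each 1000000 reads of the sample. Reads are amplified copies without molecular identifiers, so the spread between samples was taken as the error. A two-sided exact permutation test of 4 samples against 4 can give no p below 0.0286. Control replicates 3 and 4 stood apart. Control replicate 3 held 352500 RPM of rRNA, against 151600 to 238600 RPM in the other 7 samples, the highest tRNA level (153500 RPM), the lowest miRNA level (178400 RPM) and the lowest share of reads that match the genome (59.1%). Control replicate 4 held 36490 RPM of 5 muscle and vessel miRNA names (miR-143, miR-145, miR-133a, miR-1a, miR-126), against 180.3 to 524.5 RPM in the other 7 samples, and 19180 RPM of 6 epithelial miRNA names against 1060 to 3386. The 3 leukocyte miRNA names summed to 397.4 to 856.4 RPM in activated and 293.1 to 548.2 RPM in control samples (exact permutation p = 0.114). All 9 testis and sperm miRNA names were detected in every sample, with a sum of 19680 to 41260 RPM. Mitochondrial rRNA split the samples into 4 with 0.123% to 0.182% of reads and 4 with 1.09% to 1.89%, each with 2 activated and 2 control samples.

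snoRNA reads were lower on average in activated samples, with overlapping values, and the mean of snRNA reads was close between the 2 groups. Neither difference passed the test. By the class totals of the deposited summary tables, snRNA stood at 3625, 2844, 2851 and 3084 RPM for activated mice and at 3021, 3787, 3043 and 3364 RPM for control mice. The means were 3101 ± 367 and 3303 ± 358 RPM (SD, n = 4 per group), a ratio of 0.939 (exact permutation test, p = 0.486, adjusted over the 2 classes 0.486). snoRNA stood at 4203, 2460, 3785 and 1952 RPM for activated mice and at 3119, 3860, 7145 and 5864 RPM for control mice. Control replicates 3 and 4 were above all other samples, and the remaining 2 control samples lay within the range of the activated ones. The means were 3100 ± 1070 and 4997 ± 1840 RPM (SD, n = 4 per group), a ratio of 0.62 (exact permutation test, p = 0.143, adjusted 0.286). Without control replicates 3 and 4 the ratio was 0.888, with 4 samples against 2. Within the samples poor in mitochondrial rRNA it was 0.633 and within those rich in it 0.608, each with 2 samples per group. The 3 erythrocyte miRNA names (miR-451a, miR-144, miR-486) were detected in every sample. They summed to 83.48 to 298 RPM in activated and 234.7 to 976.4 RPM in control samples, with overlap (exact permutation p = 0.0571). The ratio was 0.267 for miR-451a (exact permutation p = 0.0571) and 0.194 for miR-486 (p = 0.0286, exact permutation). miR-144 was highest in activated replicate 1, at 22.48 RPM (exact permutation p = 0.4). The part of these 3 names in the snoRNA difference was not tested. Nor was that of the makeup of control replicate 3, or of the muscle, vessel and epithelial names in control replicate 4. In bulk RNA, fewer cells of a type and less RNA per cell cannot be told apart. Sums over the member fragments gave ratios of 0.941 for snRNA and 0.621 for snoRNA, with higher snoRNA levels (3584 and 5776 RPM).

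**Figure D1:**
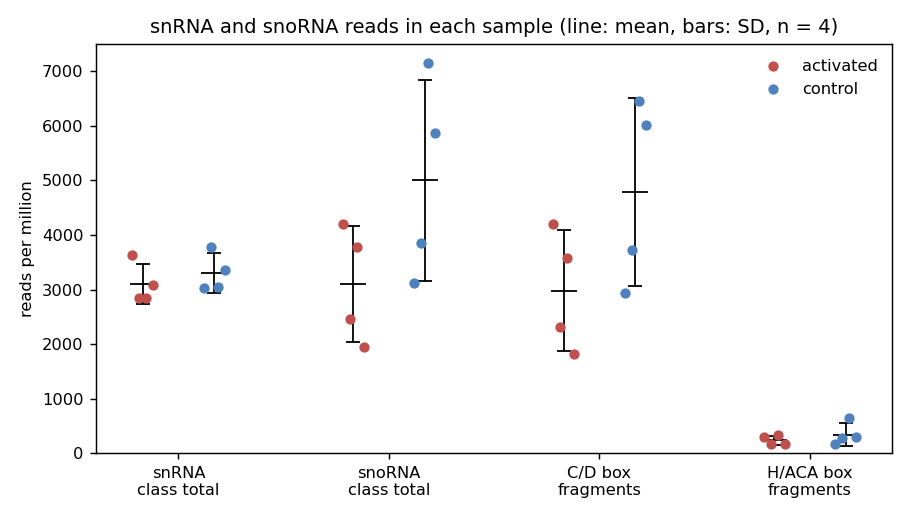
RPM of snRNA and snoRNA (class totals) and of box C/D and H/ACA fragments in each sample; points are samples, lines are means and bars are SD (n = 4 per group). snRNA lies between 2844 and 3787 RPM in all samples, while snoRNA spans 1952 to 7145 RPM with control replicates 3 and 4 on top.

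Few RNAs made up the snRNA reads. U6, U12, U1, U2 and U5 held 93.8% of snRNA RPM, and the 10 most abundant snRNAs 99.7%. The major spliceosome families U1, U2, U5 and U6 summed to 2525, 2254, 2114 and 2416 RPM for activated mice and to 2031, 2870, 2046 and 2246 RPM for control mice, a ratio of 1.01 (exact permutation test, p = 0.857). No family was built for U4, since none of the gene models used bears its name. U6, the catalytic snRNA of the spliceosome, averaged 818.7 ± 142 RPM in activated and 870.4 ± 229 RPM in control samples (SD, n = 4). U1, which pairs with the 5′ splice site, averaged 734.9 ± 83.7 and 655.6 ± 141 RPM. U2, which pairs with the branch point, averaged 506.2 ± 130 and 503.2 ± 70.8 RPM, and U5 267.4 ± 27.1 and 268.9 ± 64.4 RPM. None of these 4 families differed beyond the spread between samples (exact permutation p of 0.343 to 1, n = 4 per group).

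The minor spliceosome was represented mainly by U12, which stood near U6 and U1 in RPM. Levels of different RNAs are not given per length, so they describe reads and not molecules. U12 was at 962.7, 453.4, 585 and 526.2 RPM for activated mice and at 848.3, 760.3, 855.5 and 982.6 RPM for control mice. Activated replicate 1 was in the range of the control samples, and the other 3 activated samples were below all of them. The ratio of means was 0.733 (exact permutation test, p = 0.114, adjusted over 7 snRNA families 0.6, n = 4 per group). U11, which pairs with the 5′ splice site of minor introns, averaged 23.93 ± 5.26 and 20.46 ± 4.22 RPM (SD, n = 4), and U7 4.541 ± 1.75 and 2.721 ± 1.53 RPM. The snRNA model Gm24265, which has no family name in GENCODE, averaged 115.5 ± 6.32 and 118.9 ± 7.57 RPM.

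Fragments were not spread evenly along the snRNAs. Of U12 reads, 67.6% to 83.6% in activated and 75.7% to 85.5% in control samples ended at the last base of the gene model (exact permutation test, p = 0.171, n = 4 per group). The most abundant of these pieces, and of all snRNA fragments, differ at their 5′ ends only, and the last 15 bases of U12 are in capitals.
U12, 35 nt: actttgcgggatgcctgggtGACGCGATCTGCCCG
U12, 33 nt: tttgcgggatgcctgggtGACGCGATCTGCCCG
U12, 32 nt: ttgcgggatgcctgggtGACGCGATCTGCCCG

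The 35 nt piece was at 524.2, 160.6, 218.1 and 179.1 RPM in activated and 305.2, 312.7, 289 and 373.1 RPM in control samples, so that activated replicate 1 was the highest and the other 3 activated samples the lowest of all 8. The 33 nt piece averaged 83.01 ± 21.7 RPM in activated and 145.5 ± 31.4 RPM in control samples (SD, n = 4; exact permutation p = 0.0571), and the 32 nt piece 61.61 ± 17.3 and 119 ± 32.7 RPM (p = 0.0857, exact permutation). In U6 the reads lay in the middle: coverage was above 50% of its peak from position 29 to position 65 of 107, and only 1.84% of U6 RPM ended in the last 5 bases. Its most abundant pieces ran from position 25 to 64 (40 nt, 54.19 ± 15.1 and 58.18 ± 17.2 RPM) and from position 22 to 64 (43 nt, 37.32 ± 12.2 and 43.29 ± 9.37 RPM, SD, n = 4). In U1 the peak was at position 135 of 164 and in U2 at position 111 of 191.

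**Figure D2:**
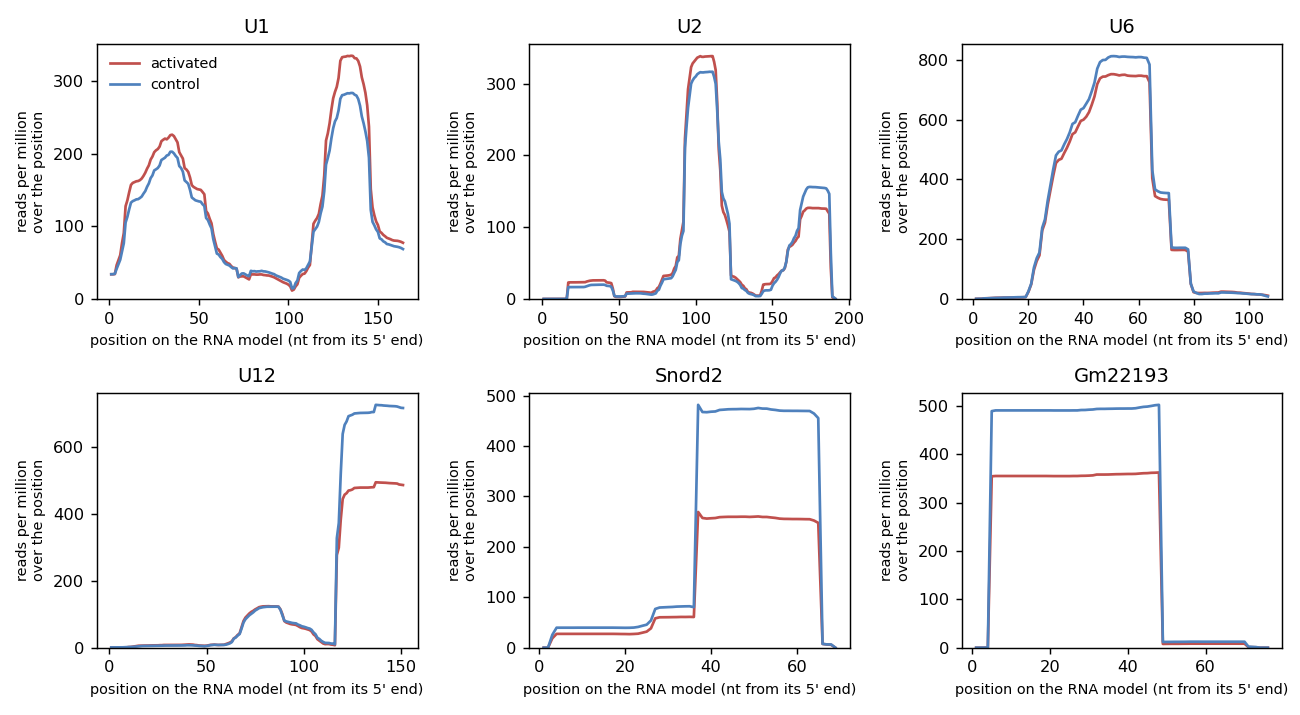
Mean RPM of reads that cover each position of 4 snRNA and 2 snoRNA models, counted in nt from the 5′ end, in activated and control samples (lines, mean of n = 4). Reads of U12 gather at its 3′ end and those of U6 in its middle; Snord2 and Gm22193 each have 1 plateau, at positions 37 to 65 and 5 to 48.

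U2 reads had more than one kind of 3′ end. The gene model ends with the 30 bases tgcagtacctccaggaacggtgcaccccct, yet most reads at the 3′ end stopped at the first CC after gca, and many ended in CCA. The examples are the most abundant pairs of fragments, with the end of the read in capitals.
U2, 20 nt, CC: acctccaggaacggtgcaCC
U2, 21 nt, CCA: acctccaggaacggtgcaCCA
U2, 28 nt, CC: attgcagtacctccaggaacggtgcaCC
U2, 29 nt, CCA: attgcagtacctccaggaacggtgcaCCA

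None of the 29 fragments that end in CCA matched the genome according to the files, whereas all 46 that end in CC did. The CCA fragments made up 29 of the 31 snRNA fragments without a genome match and 97.9% of the RPM of those. Of 14508 reads at the U2 3′ end, 8776 ended in CC, 5201 in CCA and 531 ran on into the gene model. The CCA share was 35.3%, 24.3%, 36.2% and 35.6% for activated mice and 31.5%, 33%, 46.8% and 40.9% for control mice. The ranges overlapped (means 32.9% and 38.1%, exact permutation test, p = 0.314, n = 4 per group). Where the last A of these fragments comes from was not tested.

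snoRNA reads were spread over more RNAs. The 5 most abundant snoRNAs held 32.8% of snoRNA RPM, and 14 were needed to reach 50%. Models named Snord or U3 were taken as box C/D and those named Snora as H/ACA, and other models were sorted by motif. The C/D motif was TGATG or GATGA in the first 20 bases with CTGA in the last 12. The H/ACA motif was at least 110 bases with ACA in the last 6. By name or motif, 147 snoRNAs were of the box C/D type and 141 of the H/ACA type. Another 46, without such a name, met neither definition. The other 2 of the 336 were small Cajal body RNAs. By motif alone, whatever the name, 22.8% of all 1507 GENCODE snoRNA models met the C/D and 41.3% the H/ACA definition, so these shares are not on the same basis. Box C/D RNAs held 82.9% of snoRNA RPM and H/ACA RNAs 6.26%. Box C/D reads stood at 4201, 2309, 3581 and 1814 RPM in activated and at 2937, 3725, 6460 and 6008 RPM in control samples, a ratio of 0.622 (exact permutation test, p = 0.143). Box H/ACA reads stood at 296.4, 174.7, 329.3 and 167.3 RPM against 168.7, 273.2, 640.4 and 293.5 RPM, a ratio of 0.703 (p = 0.6, exact permutation), which was 0.987 without control replicate 3.

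Many snoRNA fragments held the letters of a box, counted by place in the fragment and not on the RNA, so internal copies count too. Of the 147 snoRNA fragments that reached 50 counts in 4 or more samples, 34.7% held TGATGA and 74.1% held CTGA in the last 10 bases, against 0.288% and 3.21% of 11817 other fragments that passed the same minimum (sense strand only, any length). Box C/D reads came from either end of the RNA: 36% ± 1.78 in activated and 33.2% ± 3.09 in control samples started within 5 bases of the 5′ end, and 46.2% ± 0.983 and 49.2% ± 3.14 ended within 5 bases of the 3′ end (SD, n = 4). Neither share differed beyond the spread (exact permutation p = 0.171 and 0.143).

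The most abundant snoRNA, Gm22193, gave nearly 1 fragment. Its 44 nt piece made up 97.2% of its RPM and is shown here with the 4 other most abundant snoRNA fragments. Capitals mark TGATGA and CTGA.
Gm22193, 44 nt: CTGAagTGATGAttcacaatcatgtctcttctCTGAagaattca
Snord2, 29 nt: CTGAaatgaagagaatactcttgCTGAtc
Gm24455, 45 nt: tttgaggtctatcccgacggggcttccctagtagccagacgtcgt
Gm23262, 36 nt: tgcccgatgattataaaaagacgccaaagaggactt
Gm23969, 37 nt: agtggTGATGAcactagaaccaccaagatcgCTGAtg

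The Gm22193 fragment was at 421.2, 231, 604.6 and 158.6 RPM in activated and at 201.4, 504.2, 695 and 555.8 RPM in control samples, with overlapping groups (ratio 0.723, exact permutation p = 0.371). The Snord2 fragment was at 308.2, 164, 225.6 and 130.5 RPM in activated and at 177.7, 287.4, 436.1 and 692.4 RPM in control samples (ratio 0.52, exact permutation p = 0.171). Gm24455, an H/ACA model in an intron of Taf1d, gave a 45 nt piece of its 5′ end at 112.3, 45.28, 166.4 and 41.34 RPM in activated and 30.35, 123.4, 315.5 and 98.69 RPM in control samples, with an edgeR log2 fold change of -0.71 that was 0.02 without control replicate 3. The piece of Gm23969, in an intron of the ribosomal protein gene Rpl7a, was at 56.99 ± 33.3 and 106.9 ± 45.8 RPM. The 5′ piece of Gm23262 was at 87.63, 73.64, 53.94 and 54.52 RPM in activated and at 107.6, 95.27, 312.3 and 123.4 RPM in control samples. All activated samples were below all control samples (ratio 0.422, exact permutation p = 0.0286, the smallest possible; edgeR log2 fold change -1.29 ± 0.46 SE, adjusted p = 0.582 over all fragments). Control replicate 3 was far above the other control samples.

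Summed per RNA, all 10 most abundant snoRNAs had a lower mean in activated samples, and the groups overlapped for 9 of them. Of all 751 names tested with edgeR, 54.9% had a log2 fold change below 0 and 2.13% were lower without overlap. Gm23262 was at 336.8, 265.2, 303.3 and 182.9 RPM in activated and 380.1, 345.7, 798 and 484.6 RPM in control samples (ratio 0.542; edgeR log2 fold change -0.75 ± 0.31 SE, adjusted p = 0.529). Snord2 averaged 287.9 ± 104 and 515.4 ± 264 RPM (SD, n = 4). Snord50b, in an intron of the noncoding gene Snhg5, was at 51.33 to 79.11 RPM in activated and 65.45 to 170.7 RPM in control samples. U3, which acts in the first cleavages of the ribosomal RNA precursor, averaged 100.9 ± 17.6 and 130.3 ± 31.6 RPM. Gm24452, in an intron of the noncoding snoRNA host Snhg1, was at 438.5 RPM in control replicate 4 and at 61.53 to 280.3 RPM in the other 7 samples, and its edgeR log2 fold change of -0.61 was 0.09 without that library. That of Gm24455, at -0.45, was 0.17 without control replicate 3.

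**Figure D3:**
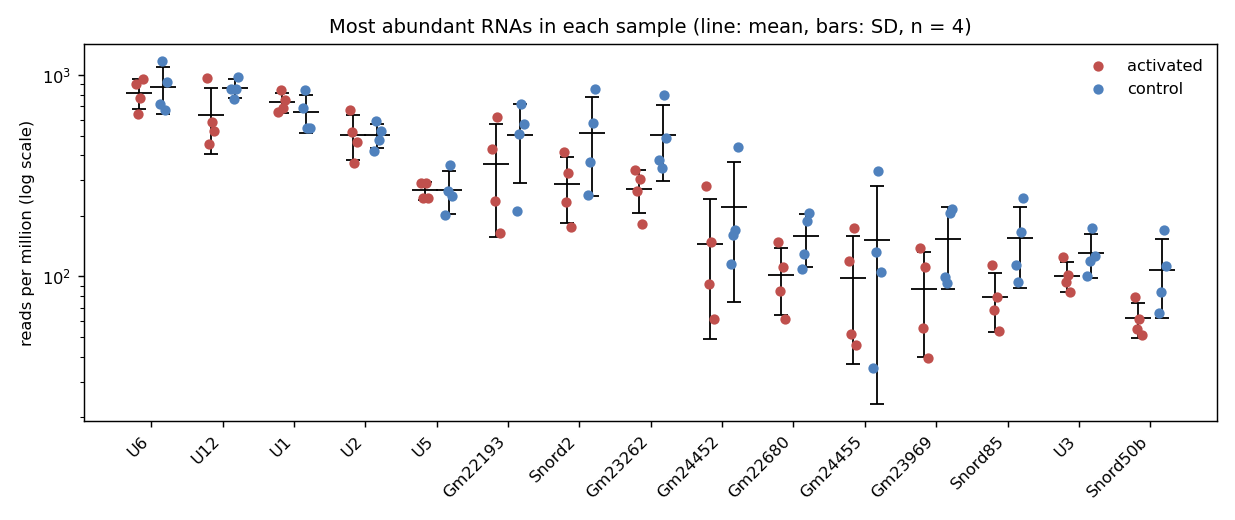
RPM, on a log axis, of 5 snRNA families and the 10 most abundant snoRNAs in each sample; points are samples, lines are means and bars are SD (n = 4 per group). The snRNA families overlap between groups, and Gm23262 is the one snoRNA shown whose groups do not overlap.

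snoRNAs were also summed by host gene and by function. Those in introns of ribosomal protein genes (51 RNAs, 17.2% of snoRNA RPM) averaged 613.9 ± 203 RPM in activated and 996 ± 380 RPM in control samples, a ratio of 0.616. Those in introns of Gas5, a noncoding gene with many box C/D snoRNAs, had a ratio of 0.57 (9 RNAs). Those of the Snhg1 gene had a ratio of 0.649 (8 RNAs). Of these, Gm25855 and Snord22 overlap an exon of Snhg1 and the others lie in its introns. The snoRNAs of ribosomal RNA processing (U3, Snord118, Snord13, Snord14, Snord22 and Snora73) summed to 205.1 ± 44.2 and 260.4 ± 73 RPM, a ratio of 0.788. The 4 snoRNAs of the Rpl13a gene (Snord32a, Snord33, Snord34, Snord35a) had a summed ratio of 0.635. As for all 751 names tested, edgeR called none of the members of these lists. None of these sums differed beyond the spread between samples (exact permutation p of 0.114 to 0.229, n = 4 per group). Of the imprinted snoRNA clusters (Snord115, Snord116, Snord64, Snord113 and Snord114) 2 RNAs were matched, none above the count minimum. They summed to 0.744 to 1.76 RPM in activated and 2.17 to 6.06 RPM in control samples, without overlap (exact permutation p = 0.0286, unadjusted over the 14 sums of this kind).

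Length profiles differed between the classes. snRNA fragments were most abundant at 35 nt (12.1% of class RPM) and 33 nt (6.7%), and snoRNA fragments at 44 nt (11.3%), 29 nt (10.7%) and 28 nt (7.84%). Of snoRNA lengths from 15 to 45 nt, the mean was lower in activated samples at all 31, with ratios from 0.507 at 36 nt to 0.741 at 19 nt. These lengths are parts of 1 class total per sample, highest in control replicates 3 and 4, so they are not separate results. At 19 nt, control replicates 1 and 2 (43.07 and 44.63 RPM) lay within the activated range of 35.6 to 62.67 RPM. As shares of snoRNA reads, bands of length did not differ beyond the spread (exact permutation p of 0.257 to 0.486). At 36 nt the groups did not overlap, at 101.6 to 180.2 RPM against 184.7 to 469.5 RPM (exact permutation p = 0.0286, adjusted over the lengths of the class 0.258). Of snRNA lengths, 17 had a lower and 14 a higher mean. At 32 nt, where one of the U12 pieces lies, the groups did not overlap, at 149.9, 130, 150.8 and 140.6 RPM against 206.7, 177.5, 201.1 and 212.8 RPM (ratio 0.716, exact permutation p = 0.0286, adjusted 0.884). No length passed after adjustment.

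**Figure D4:**
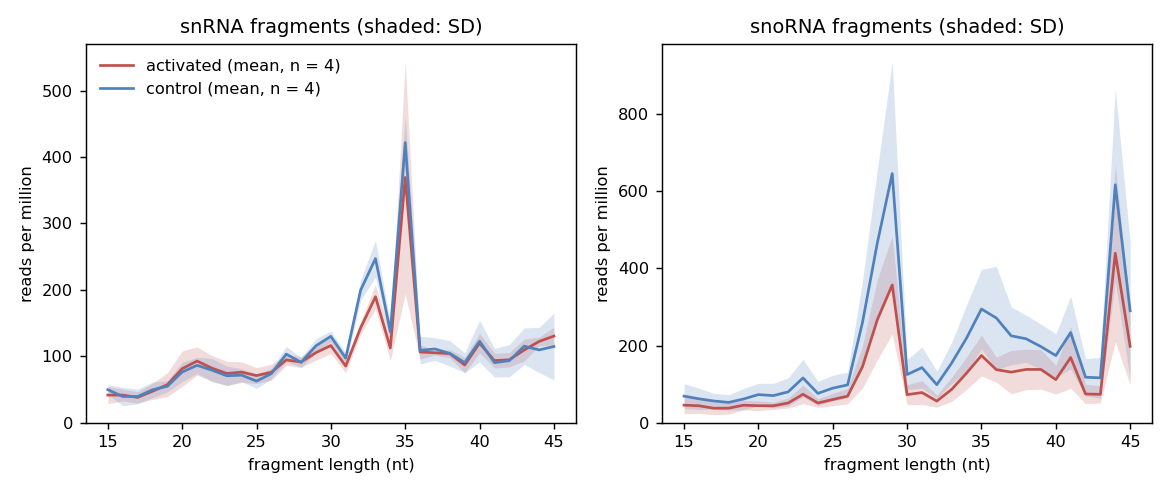
RPM by fragment length (nt) for snRNA and snoRNA; lines are group means and shading is SD (n = 4 per group). snRNA peaks at 35 nt, snoRNA at 28 to 29 nt and at 44 nt, and the snoRNA mean is lower in activated samples at all 31 lengths. The lengths are parts of 1 class total per sample, which is highest in control replicates 3 and 4.

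Per fragment, across the whole table, edgeR called none of the members and DESeq2 called 2. The minimum of 50 counts in 4 samples left 12077 fragments, of which 113 were snRNA and 147 snoRNA, and the members below the minimum were not tested. edgeR's quasi-likelihood test called 61 fragments higher (0.505% of all) and 0 lower in activated samples, and 0 of the 260 members in either direction. A call needed a log2 fold change past 1 in size and a Benjamini-Hochberg adjusted p under 0.05. At an unadjusted p under 0.05, 34 snoRNA fragments were lower (23.1%, against 4.12% of all fragments) and 0 higher, and 4 snRNA fragments were lower and 1 higher (3.12% of all were higher). Of the 147 snoRNA fragments, 146 had a log2 fold change below 0, against 49.0% of all fragments. Their median was -0.88, against -0.15 for snRNA fragments and 0.01 for all fragments tested. The groups did not overlap for 17 snoRNA fragments (11.6%) and 1 snRNA fragment that were lower, against 1.47% of all fragments, and for 1 snRNA fragment that was higher, against 2.52%. Overlapping fragments of one RNA share their reads' source, so these counts are not of independent members. The number of snoRNA fragments lower at an unadjusted p under 0.05 moved with single libraries: it was 66 without activated replicate 1, 58 without control replicate 1, 15 without activated replicate 2 and 14 without activated replicate 4. Without control replicate 4, 119 of 127 snoRNA fragments were below 0 and 12 had an unadjusted p under 0.05, and without control replicate 3 the counts were 126 of 130 and 11.

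**Figure D5:**
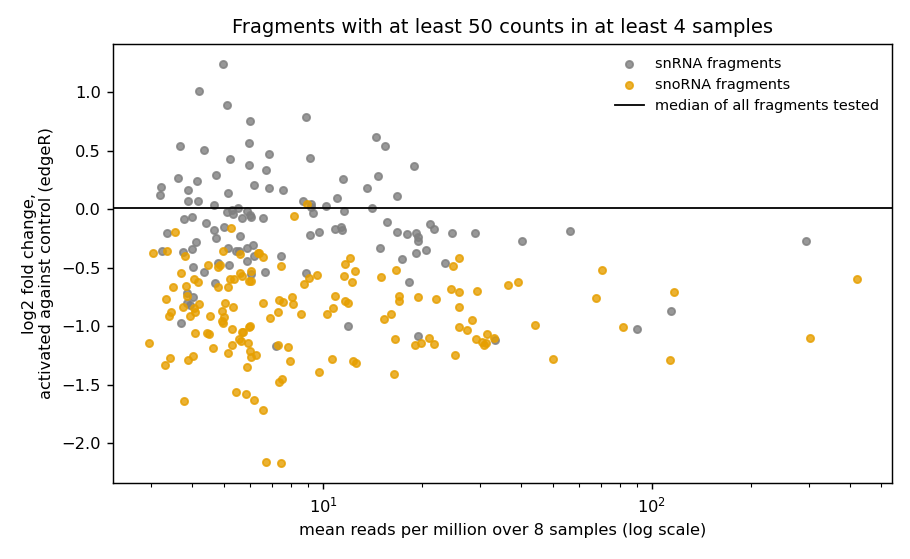
edgeR log2 fold change (activated against control) of each snRNA and snoRNA fragment tested, against its mean RPM over 8 samples (log axis). Of the snoRNA fragments 146 of 147 lie below 0, and snRNA fragments lie on both sides of it.

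DESeq2 on the same counts called 2 snoRNA fragments lower and no snRNA fragment (45 fragments in all, or 0.373%, were called lower, and 1.61% higher). They are shown with the third snoRNA fragment of lowest edgeR p and the U2 fragment of lowest p among those higher. Capitals mark CTGA in the snoRNA fragments and the last 2 bases in U2.
Snord15b, 28 nt: tgattgatttagaggcatttgtCTGAga
Gm23262, 36 nt, 3′ end: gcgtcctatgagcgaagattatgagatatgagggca
Snord66, 28 nt: accacatgatgggattgaggacCTGAgg
U2, 44 nt: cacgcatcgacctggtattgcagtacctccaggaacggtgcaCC

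The Snord15b fragment, from the 3′ end of a box C/D snoRNA in an intron of the ribosomal protein gene Rps3, was at 2.281, 2.973, 3.659 and 2.551 RPM in activated and at 7.97, 7.179, 9.895 and 6.9 RPM in control samples. The highest activated sample was below the lowest control sample. The edgeR log2 fold change was -1.56 ± 0.31 (SE, adjusted p = 0.0808), and DESeq2 gave a shrunken log2 fold change of -1.37 (adjusted p = 7.91e-05). The 3′ piece of Gm23262 was at 10.67, 8.92, 12.4 and 5.951 RPM in activated and 23.83, 22.06, 19.58 and 28.16 RPM in control samples, again without overlap (edgeR adjusted p = 0.248, DESeq2 adjusted p = 0.0189). The Snord66 fragment, of a box C/D snoRNA in an intron of Eif4g1, averaged 1.924 ± 0.669 and 5.601 ± 2.36 RPM (SD, n = 4; edgeR adjusted p = 0.29, DESeq2 0.0505). The U2 fragment, which ends in CC, averaged 7.109 ± 3.08 and 2.828 ± 1.5 RPM, and its groups did not overlap (edgeR log2 fold change 1.24 ± 0.47 SE, adjusted p = 0.638). Next to it were the 45 nt U2 fragment that starts 1 base earlier (6.844 ± 3.1 and 3.325 ± 1.59 RPM) and the 45 nt U1 fragment of the 3′ end (11.54 ± 4 and 6.237 ± 3.2 RPM).

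After fragments were summed, neither edgeR nor DESeq2 called a member. Grouped by containment in a longer tested fragment, the members formed 19 snRNA and 79 snoRNA groups among 708 names tested, and edgeR called 0 names of 708 (0.00% in either direction). All 79 snoRNA groups had a log2 fold change below 0, against 54.2% of all names, with a median of -0.71, and 16 had an unadjusted p under 0.05 (7.20% of all names were lower at that p, and 1.69% higher, none of them members). These groups, like the RNAs below, share the snoRNA total of each sample, highest in control replicates 3 and 4, so such counts are not of independent members. Counts without both of those samples were not made. For 7 snoRNA groups (8.86%) all activated samples were below all control samples, against 1.98% of names, and for no member was it the other way round, against 1.13%. DESeq2 called 0.282% of names lower, and 0 members. Without control replicate 4, 74 of 78 groups were below 0 and 7 had such a p, and without control replicate 3 the counts were 72 of 78 and 6 (5 to 28 at such a p with any one sample left out). Of the snRNA groups 7 were below 0. The largest snRNA groups were the 3′ end of U12 (490.8 ± 222 and 722 ± 108 RPM; log2 fold change -0.51 ± 0.29 SE, adjusted p = 0.518) and the U6 pieces within positions 27 to 71 (355.7 ± 87.4 and 398.2 ± 96.2 RPM). Summed by GENCODE RNA, an alternative chosen after the files were seen, 121 of 130 snoRNAs and 2 of 11 snRNAs were below 0, against 54.9% of 751 names. At an unadjusted p under 0.05, 16 snoRNAs were lower, against 7.06% of names, and 0 members higher, against 1.33%, with 2 to 29 snoRNAs lower with any one sample left out, the fewest without control replicate 3. DESeq2 called 0.266% of these names lower, and 0 members. The lowest p were those of Snord66 (11.27 ± 2.8 and 27.92 ± 11.8 RPM; log2 fold change -1.16 ± 0.33 SE), Snord1a (16.14 ± 6.25 and 33.58 ± 9.16 RPM) and Snord95, in an intron of Rack1 (13.56 ± 3.9 and 28.91 ± 11.4 RPM), each with an adjusted p of 0.529. All 4 activated samples were below all 4 control samples for these 3, as for 9 of the 130 snoRNAs (6.92%, against 2.13% of all names), and no member was higher without overlap, against 1.07%. Among those higher, the lowest p were those of U7, Gm25541 and Snord73a, with log2 fold changes of 0.87 ± 0.55, 0.33 ± 0.23 and 0.42 ± 0.29 (SE) and adjusted p of 0.56 to 0.567.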

How the data were processed

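Per sample, the authors deposited raw read counts of each distinct fragment, and expected counts per annotation class, made with SPORTS1.1 (adapter trimming, lengths of 15 to 45 bases kept, duplicates left in, matching with 0 mismatches to mm10 and RNA databases by Bowtie). No read was deduplicated, so counts hold amplification copies. Here, member counts were scaled to RPM of the file total. Fragments were matched exactly to GENCODE M21 models, because the annotation names no RNA below the class; that step, and the sums by RNA, were chosen after seeing the files. Fragments and names that reached 50 counts in 4 or more samples entered edgeR 4.0.16 (TMM, quasi-likelihood) and, as an alternative, DESeq2 1.42.0 with apeglm 1.24.0 (R 4.3.3), both tested on simulated data; adjusted p are Benjamini-Hochberg over all features. Single values were put to exact permutation tests, two-sided (scipy 1.17.1). Alternatives covered scaling, count minimums, genome-matched rows, denominators, a replicate block, mitochondrial rRNA sets and leaving out samples. Named items were the 10 largest groups per class, the 5 most abundant fragments per class, members called by either tool, the 3 of lowest p in each direction, and 3 snoRNA lists. Members and lists were chosen with earlier results of these data known.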

Additional observations from a re-analysis of the deposited data

Results flagged for a closer look

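In groups of 4 samples, 8 of 104 tested sets of values held a sample far from the other 3 (Dixon's test of the gap against the range, 95% level), where chance gives about 1 in 20. Control replicate 3 stood alone at 21.4 RPM of Snord34 (others 10.5 to 12), 28.1 RPM of Snora73a (10.2 to 11.6), 47.4 RPM of Snord14c (24.8 to 27.3) and 312 RPM of the 5′ fragment of Gm23262 (95.3 to 123). Control replicate 4 stood alone at 438 RPM of Gm24452 (others 115 to 170) and, at the low end, at 14.1 RPM of U11 (22.2 to 22.9). Control replicate 2 stood alone at 5.71 RPM of the 45 nt U2 fragment (2.37 to 2.65). Activated replicate 1 stood alone at 524 RPM of the 35 nt U12 fragment (161 to 218).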

How the results depend on the processing

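The ratio of activated to control snoRNA totals stayed below 1 under each denominator tried and each sample left out (0.547 to 0.724; snRNA 0.886 to 0.987, box C/D 0.537 to 0.705, box H/ACA 0.601 to 0.987), and no p passed 0.05, which 4 samples against 3 cannot reach (smallest p 0.0571). Replicate numbers did not pair the samples (correlations of same-numbered samples from -0.402 to 0.502), and with them as a replicate block the exact sign-flip permutation p was 0.625 for snRNA and 0.25 for snoRNA (ratio 0.62; smallest possible 0.125), with 0 members called by edgeR. Called snoRNA fragments, all lower, were 2 of 147 with DESeq2 (1.36%, against 0.373% of all fragments), 5 of 3710 with a minimum of 1 count in 4 samples (0.135%, against 0.272%) and 1 of 147 with the mitochondrial rRNA set as covariate (0.68%, against 0.058%), and 0 under every other setting run. snoRNA lengths with an exact permutation p under 0.05 numbered 0 with TMM effective library sizes, and snRNA lengths 2 with genome-matched reads as denominator; snRNA lengths with a lower mean ranged from 11 to 26 with a sample left out. The cause was not tested.

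The direction turned for 16 named items, none of them called; with all samples, their log2 fold changes ran from -0.71 (Gm24455 fragment) and -0.61 (Gm24452) to 0.13 (U5). With a sample left out, log2 fold changes spanned -0.34 to 0.02 (U6 40 nt fragment), -1.1 to 0.02 (Gm24455 fragment), -0.21 to 0.06, -0.17 to 0.23 and -0.18 to 0.13 (3 U6 groups, at 27-71, 20-64 and 35-78), -0.12 to 0.24 and -0.16 to 0.23 (U2 groups at 90-122 and 143-187), -1.12 to 0.21 (Gm24455 group), -0.7 to 0.23 (Gm24452 group at 3-44), -0.14 to 0.18 (U6), -0.95 to 0.09 (Gm24452), -1.03 to 0.17 (Gm24455), -0.37 to 0.08 (Snord118), -0.31 to 0.06 (Snord14c) and -0.26 to 0.34 (Snord13). With library size only, the U6 group at 20-64 was at -0.05, the U2 group at 143-187 at -0.12, U5 at -0.01, U6 at -0.09 and Snord13 at -0.1. That U2 group was at -0.01 with DESeq2, -0.02 with median-ratio scaling, -0.05 and -0.04 with minimums of 10 and 1 counts, and -0.06 with genome-matched rows, with which U6 was at -0.01. Snord13 was at -0.00 with the replicate block and -0.07 with the mitochondrial rRNA set.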

Other observations

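By the class totals, small Cajal body RNAs, which guide the modification of snRNAs, stood at 55.19 ± 14.7 RPM in activated and 80.92 ± 15 RPM in control samples (SD, n = 4; exact permutation p = 0.0571). Among the member fragments, 168 matched 2 RNAs of this kind and held 0.32% of snoRNA RPM. The 46 snoRNAs that met neither box definition, led by Gm23262, stood at 227.9 to 442.1 RPM in activated and 423.7 to 946.4 RPM in control samples, a ratio of 0.558 (exact permutation p = 0.0571). Box H/ACA reads came from the 5′ end (41.84% and 42.96%) and the 3′ end (42.75% and 45.16%) of their RNAs in activated and control samples. A single RNA, Gm24455, held 124.8 of the 292.9 RPM of this class on average, and 93.9% of its RPM started at the 5′ end.

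Most fragments were rare. Of snRNA fragments 841 were found in all 8 samples and 6141 in 1 sample only, and of snoRNA fragments 969 and 7171. Reads that matched 1 RNA or family only made up 94.2% of snoRNA RPM and 65.8% of snRNA RPM. The share of U12 reads that were its 30 nt 3′ end piece was 0.479% to 0.799% in activated and 0.858% to 1.66% in control samples, without overlap (exact permutation p = 0.0286, from 800 reads in all, one of 6 lengths compared).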
